A study of Homo sapiens with 6 samples.

Results

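Transcripts of 35 genes that sense, signal or relieve stress in the endoplasmic reticulum (ER), or that fold, oxidise and dispose of proteins there, were compared in THP-1 cells before and after differentiation. The genes were chosen by name, with earlier results of these data known. Each was read from the probe set that carried its symbol alone, and from the brightest of these, by mean over 6 arrays, where a gene had several. This left 34 of the 35, among 18417 genes tested. PDIA3, a disulfide isomerase that works with the lectin chaperones, lay only on probe sets shared with its pseudogene PDIA3P1 and has no value here. THP-1 is a human cell line grown from a monocytic leukaemia. In 3 samples it was unstimulated. In the other 3 it had been differentiated over 3 days with 200 nM PMA, the phorbol ester widely used to turn this line into macrophage-like cells by way of protein kinase C, and then kept for 3 days without it. Cells of both groups were cultured in RPMI supplemented with FBS (10%), mercaptoethanol (0.05 mM) and glutamate (2.5 mM). The labels do not say that the 3 samples of a group came from separate cultures, so the p-values below measure only the spread between these samples, which may be technical. All cells are 1 line, and the medium during the rest is not described further in the labels.

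Secretory and membrane proteins enter the ER through the Sec61 channel, are folded by chaperones such as BiP, calnexin and calreticulin, and gain disulfide bonds from the protein disulfide isomerases. Unfolded protein is sensed by IRE1 (ERN1), PERK (EIF2AK3) and ATF6, which together drive the unfolded protein response. IRE1 splices the mRNA of XBP1 to make an active transcription factor, ATF6 is cut in the Golgi to release its own, and PERK phosphorylates the translation factor eIF2alpha, which slows translation and favours that of ATF4. Proteins that do not fold are trimmed of mannose, drawn back to the cytosol and degraded. Secretory cells, plasma cells above all, depend on XBP1 to enlarge the ER. An expression array reads the total mRNA of each gene; it does not show XBP1 splicing, ATF6 cleavage or phosphorylation.

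Some promoters of these genes hold a pair of short elements found in few promoters of the table, and the promoters with the longer element are shown here; most of the 42 hold neither. ATF6 and XBP1 act through the ER stress response element (ERSE), which reads CCAAT, then any 9 bases, then CCACG. RefSeq promoters (GRCh38.p14, 250 bases before to 50 after each start) were found for 31 of the 35 genes, with 42 starts, and TRIB1, DERL1, DERL3 and PDIA3 had none in that table. On either strand, the ERSE matched in 27 of all 35116 promoters (0.0769%) and in 7 of the 42 promoters of these genes (16.7%). The genes were XBP1, CALR, CANX, PDIA6 and CRELD2, 5 of 31. CANX had the match from 3 of its 4 starts, and it was the same stretch of chromosome 5 (179698778 to 179698796) each time. One promoter of each is given below 5′ to 3′ on the gene's strand, with the ERSE match in capitals. They are chr22:28800520-28800819 (minus strand) for XBP1, chr2:10812736-10813035 (minus strand) for PDIA6, chr19:12938359-12938658 (plus strand) for CALR, chr5:179698679-179698978 (plus strand) for CANX and chr22:49918384-49918683 (plus strand) for CRELD2. In CALR and CRELD2 the match lies on the other strand and reads in reverse complement.
XBP1: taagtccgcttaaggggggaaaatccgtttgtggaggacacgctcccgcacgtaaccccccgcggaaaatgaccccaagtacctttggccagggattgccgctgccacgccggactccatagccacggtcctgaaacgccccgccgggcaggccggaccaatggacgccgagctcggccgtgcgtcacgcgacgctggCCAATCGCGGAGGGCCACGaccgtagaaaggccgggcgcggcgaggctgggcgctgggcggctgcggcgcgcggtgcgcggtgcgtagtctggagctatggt
PDIA6: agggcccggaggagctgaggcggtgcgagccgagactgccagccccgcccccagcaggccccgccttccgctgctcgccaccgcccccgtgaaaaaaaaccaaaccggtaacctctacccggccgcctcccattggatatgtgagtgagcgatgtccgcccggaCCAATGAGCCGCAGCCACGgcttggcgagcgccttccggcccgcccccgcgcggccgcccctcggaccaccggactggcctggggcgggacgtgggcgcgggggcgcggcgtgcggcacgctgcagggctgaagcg
CALR: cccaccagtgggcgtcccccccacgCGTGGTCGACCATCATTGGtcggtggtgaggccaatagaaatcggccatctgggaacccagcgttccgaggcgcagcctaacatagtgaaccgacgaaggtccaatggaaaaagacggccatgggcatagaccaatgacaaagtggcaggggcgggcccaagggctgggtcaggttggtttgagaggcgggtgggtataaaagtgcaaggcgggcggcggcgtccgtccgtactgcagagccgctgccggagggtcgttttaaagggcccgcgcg
CANX: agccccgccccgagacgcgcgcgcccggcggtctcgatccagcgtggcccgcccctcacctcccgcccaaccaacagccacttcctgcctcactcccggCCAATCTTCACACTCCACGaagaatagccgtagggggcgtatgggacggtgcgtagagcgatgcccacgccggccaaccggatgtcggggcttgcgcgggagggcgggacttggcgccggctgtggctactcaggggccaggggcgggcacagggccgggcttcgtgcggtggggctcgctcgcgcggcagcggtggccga
CRELD2: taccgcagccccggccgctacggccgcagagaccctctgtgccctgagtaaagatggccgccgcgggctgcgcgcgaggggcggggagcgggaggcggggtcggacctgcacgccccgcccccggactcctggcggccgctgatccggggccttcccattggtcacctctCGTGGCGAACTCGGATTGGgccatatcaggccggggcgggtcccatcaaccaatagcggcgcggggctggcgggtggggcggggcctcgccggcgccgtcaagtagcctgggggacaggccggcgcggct

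Related letters marked other members. ERSE-II, which reads ATTGG, any 1 base and CCACG, and so shares CCACG with the ERSE, matched in 19 of all promoters (0.0541%) and in 3 of the 42, those of HERPUD1, HYOU1 and SDF2L1. HYOU1 held it at 2 places, and 1 of them overlapped the only match in the 42 promoters (2.38%, against 0.729% of all) of TGACGTGG, an XBP1 and ATF6 site called UPRE. The CARE sequence TGATGNAAN, read by ATF4 with C/EBP factors, matched in CHAC1, ASNS and HERPUD1, 3 of 42 promoters (7.14%), against 3.61% of all. CCACG alone, which lies within both elements, was common and marked 38.1% of all promoters and 69% of the 42. All matches are letters, not shown binding. Of 25 genes in the table with an ERSE, 19 were measured, and 1 was higher and 4 were lower with PMA at an adjusted p of 0.05 in limma, where 26.4% of all genes passed in either direction.

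**Figure D1:**
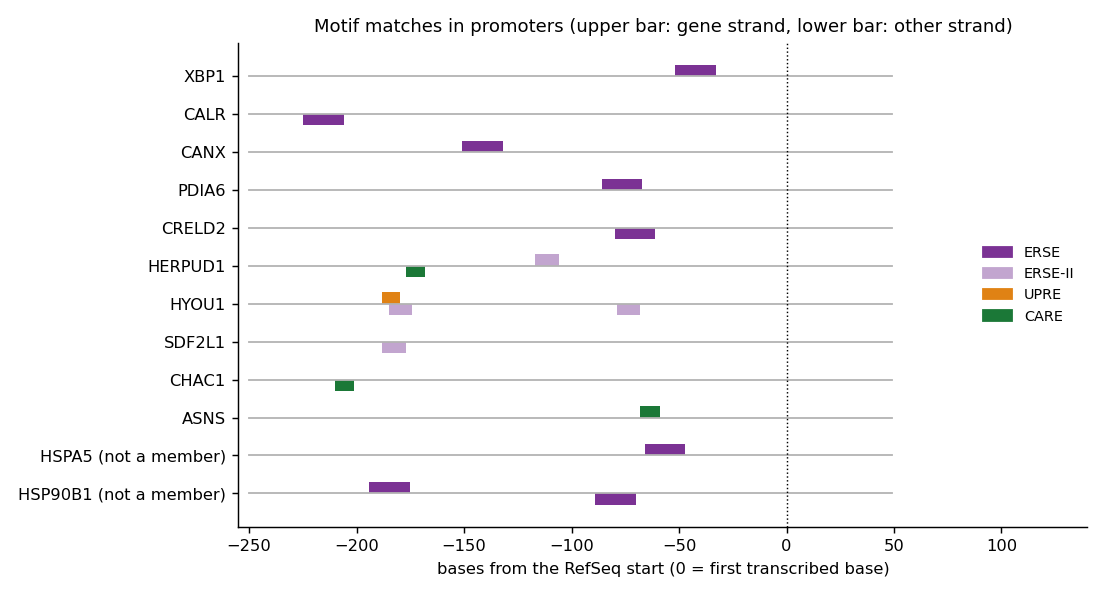
Positions of motif matches in the 300 bases around the RefSeq start of 10 members and of HSPA5 and HSP90B1, in bases from the start. Purple marks the ERSE, pale purple ERSE-II, orange UPRE and green CARE; bars above a line lie on the gene's strand and bars below it on the other. The ERSE of XBP1 begins at −52, that of PDIA6 at −86 and that of CRELD2 at −80, while those of CALR and CANX lie farther upstream, from −225 and −151.

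Array medians of the log2 values were 6.20, 6.25 and 6.22 on the unstimulated arrays and 6.10, 6.14 and 6.17 with PMA. Every PMA median was thus below every unstimulated one, a difference that centring the arrays on their medians, below, takes out. Across probe sets, arrays of one group correlated with Pearson's r between 0.988 and 0.995, and arrays of different groups with r between 0.958 and 0.968. All 8 measured markers of monocytes and macrophages lay above the median of every array. With PMA, 4 of the 8 rose (CD14, ITGAM, CSF1R and TYROBP), LYZ, the lysozyme gene, fell 6.79-fold (−2.76 ± 0.13, adjusted p = 8.72e-06), and SPI1, PTPRC and CD68 did not pass. CD14 was 7.51, 9.67 and 9.65 on the unstimulated arrays and 11.56, 11.37 and 11.29 with PMA, so part of its difference lay in the low unstimulated replicate 1 array. Of 17 measured markers of T, B, erythroid, epithelial, fibroblast and plasma cells, COL1A1 and SDC1 also lay above the median of every array. The fibroblast marker PDGFRB was higher with PMA (0.52 ± 0.14 on the log2 scale, adjusted p = 0.0323 in limma). The B cell marker CD79A was lower (−0.36 ± 0.11, adjusted p = 0.0429). SDC1, which plasma cells carry, was higher with PMA (1.11 ± 0.17 on the log2 scale, adjusted p = 0.00212 in limma), while the plasma cell markers TNFRSF17 (3.37 to 3.64) and MZB1 (4.97 to 5.41) stayed below every array's median. The mean of the 3 plasma cell markers ran from 5.14 to 5.28 on the unstimulated arrays and from 5.36 to 5.65 with PMA. That rise lay in SDC1, while TNFRSF17 (−0.06) and MZB1 (−0.13) did not rise. The part of SDC1 in the results below was not tested.

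Changes are given from here on in log2 units as PMA minus unstimulated, ± the standard error of the limma fit (n = 3 arrays per group). Past the threshold means an adjusted p below 0.05 after Benjamini-Hochberg adjustment over all 18417 genes. PMA-differentiated cells had less mRNA of EDEM1, EDEM2 and XBP1, of 3 disulfide isomerases and of DDIT4 and TRIB3, and more of ATF6 and PPP1R15A. The main ER chaperones and the death-linked factor DDIT3 did not pass. In all, 2 of the 34 rose (5.88%) and 8 fell (23.5%), where 13.2% of all genes tested rose and 13.2% fell. Taking both directions, 10 of 34 passed (29.4%), close to the 26.4% of all genes. Of the 10, PPP1R15A rose and DDIT4 and EDEM1 fell at least 2-fold; 8.37% of all genes changed that much, 5.17% up and 3.2% down. The groups did not overlap for 17 members (50%), 9 higher and 8 lower with PMA, against 41.2% of all genes (19.2% higher and 22% lower). The median change of the 34 was −0.05 where that of all genes was −0.03. The shares over all genes count dim genes too, while the members lay between the 44.9 and 99.8 percentile of mean level. With genes below the median level left out, 3 of 33 members rose and 8 fell in limma. Of all genes kept, 1880 rose and 1755 fell, a larger share than over all genes tested. In these bulk samples, fewer cells with a transcript and less of it per cell cannot be told apart.

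Among the members, the number of falls was steadier than that of rises. Under 3 rescalings of the arrays, 8 members fell each time, while 4 rose with quantile normalization repeated, 6 with arrays centred on their medians and 7 with cyclic loess. The same rescalings raised the rises over all genes from 2431 to 2669, 2911 and 2936. Falls over all genes went from 2423 to 2246, 1802 and 1977. The share of rises among all calls went from 50.1% to 54.3%, 61.8% and 59.8%. Without PMA replicate 1 no member rose in limma, where 1726 of all genes did, and 1 rose without PMA replicate 2 or unstimulated replicate 3. The members' falls numbered 7 or 8 whichever array was left out, where 1597 to 2449 of all genes fell.

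**Figure D2:**
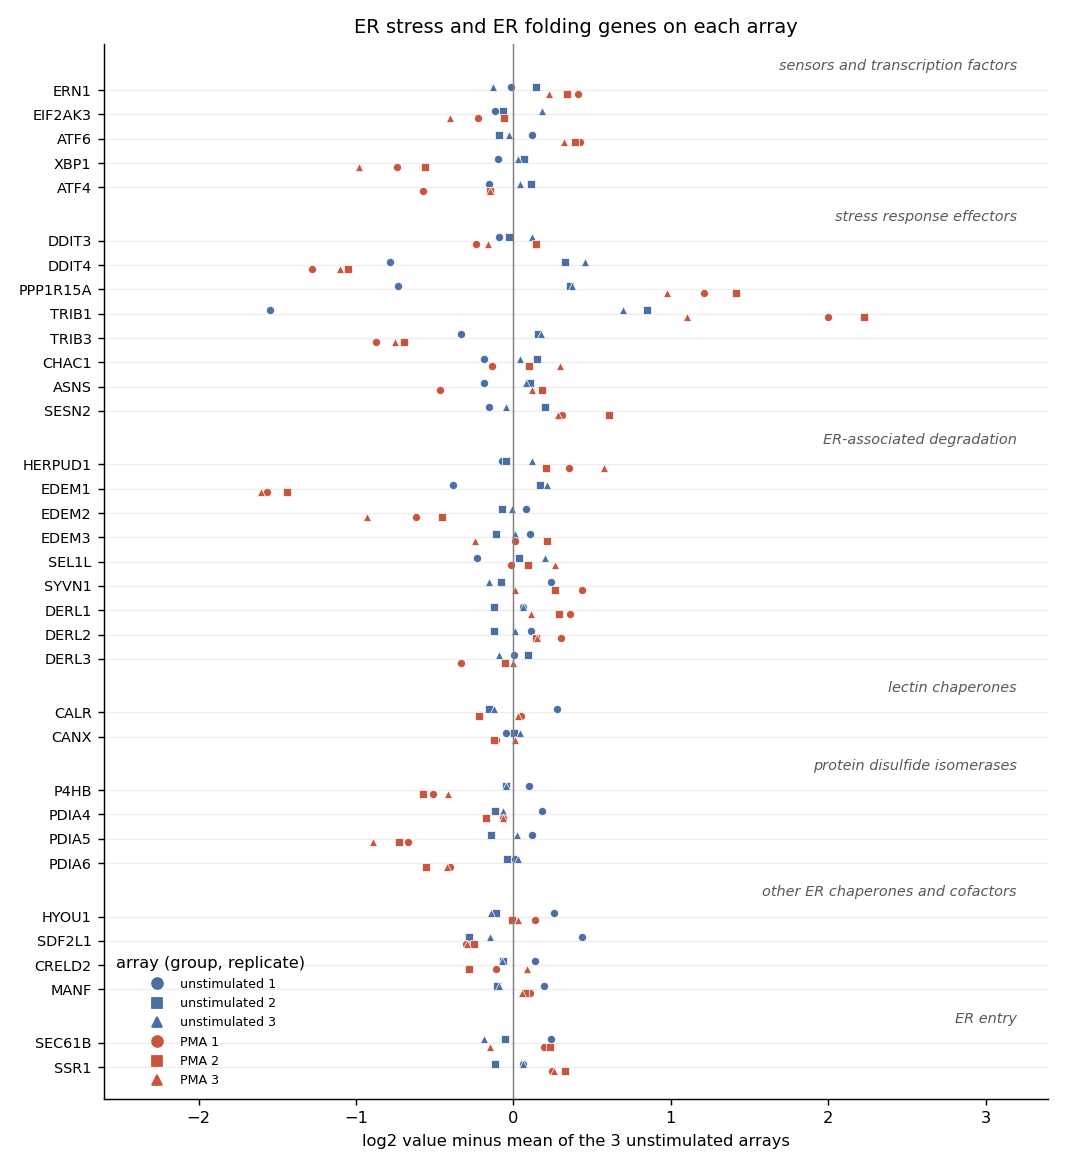
Each member on each array, as its log2 value minus the mean of the 3 unstimulated arrays (x axis), grouped by role; blue marks are unstimulated and red marks PMA arrays, with the shape giving the replicate. EDEM1, XBP1 and the isomerases P4HB, PDIA5 and PDIA6 lie to the left on all PMA arrays, and the unstimulated replicate 1 array lies lowest of its group for all 8 stress response effectors.

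Among the sensors and their transcription factors, XBP1 fell. It was 10.26, 10.42 and 10.39 on the unstimulated arrays and 9.62, 9.80 and 9.38 with PMA. Every PMA array was below every unstimulated one, by a mean of −0.76 ± 0.12, a 1.69-fold fall (adjusted p = 0.00314). ATF6, whose cleaved form activates chaperone genes, went the other way, from 10.54, 10.32 and 10.39 to 10.84, 10.81 and 10.74. The groups did not overlap and the rise was small, 1.30-fold (0.38 ± 0.09, adjusted p = 0.0208). This call was lost without PMA replicate 1 (adjusted p = 0.0794), PMA replicate 2 (0.0662), unstimulated replicate 2 (0.0722) or unstimulated replicate 3 (0.0722). The log2 ratio of XBP1 to ATF6 signal within an array, which no shift of a whole array can change, lay between −0.28 and 0.10 in unstimulated cells. With PMA it lay between −1.36 and −1.01. Its absolute size depends on the probes and only its change is read. The pair was picked after the values were seen and carries no test.

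Neither kinase passed in the main comparison. ERN1, which encodes IRE1, was 7.70, 7.86 and 7.59 in unstimulated cells and 8.13, 8.05 and 7.94 with PMA. The groups did not overlap, yet it did not pass (0.32 ± 0.11, adjusted p = 0.0581) although it did without unstimulated replicate 2 (0.0494), with centred arrays (0.0283) and with cyclic loess (0.0366). EIF2AK3, which encodes PERK, was 7.20, 7.25 and 7.50 and then 7.09, 7.25 and 6.91, overlapping (−0.23 ± 0.13, adjusted p = 0.238). ATF4, the activator translated when eIF2alpha is phosphorylated, was 10.32, 10.58 and 10.52 and then 9.90, 10.33 and 10.32 (−0.29 ± 0.14, adjusted p = 0.188). Both probe sets of ATF4 were lower in mean with PMA, and only the dimmer passed. The dimmer was 9.48, 10.03 and 10.04 in unstimulated cells and 9.08, 9.27 and 9.28 with PMA (−0.64 ± 0.16, adjusted p = 0.0217 over all probe sets with 1 symbol). With the mean of both probe sets ATF4 passed in limma (−0.47, adjusted p = 0.0472).

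The effectors downstream of PERK and ATF4 moved apart from each other. PPP1R15A (GADD34), which brings phosphatase to eIF2alpha and restores translation, was 7.01, 8.11 and 8.12 in unstimulated cells and 8.96, 9.16 and 8.72 with PMA. All PMA arrays were higher, a 2.30-fold rise (1.20 ± 0.29, adjusted p = 0.0189). The unstimulated replicate 1 array was low and carried part of the size: without it the change was 0.83 (adjusted p = 0.00587). The call was lost without PMA replicate 1 (0.0643) or PMA replicate 2 (0.0626). DDIT3 (CHOP), the transcription factor tied to death from ER stress, was 8.42, 8.49 and 8.63 and then 8.28, 8.66 and 8.35. Its groups overlapped (−0.09 ± 0.12, adjusted p = 0.691), with a 95% interval from −0.37 to 0.20.

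DDIT4 (REDD1), an inhibitor of mTORC1, fell 2.21-fold (−1.15 ± 0.30, adjusted p = 0.0251). It was 6.65, 7.76 and 7.88 on the unstimulated arrays and 6.15, 6.38 and 6.32 with PMA, so the lowest unstimulated array stood near the PMA arrays. Without that array, replicate 1, the change was −1.54 (adjusted p = 0.000168), whereas the call was lost without PMA replicate 1 (0.0902), PMA replicate 2 (0.0561), unstimulated replicate 2 (0.0997) or unstimulated replicate 3 (0.087). TRIB3, a pseudokinase induced by ATF4 and DDIT3, fell 1.71-fold (−0.77 ± 0.15, adjusted p = 0.00691), from 7.74, 8.23 and 8.24 to 7.20, 7.38 and 7.32. Both genes were lower on every PMA array than on any unstimulated one.

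TRIB1, the pseudokinase relative that sends C/EBP factors for degradation, had the largest difference of the 34 and did not pass. It was 6.62, 9.02 and 8.86 in unstimulated cells and 10.17, 10.39 and 9.27 with PMA (1.78 ± 0.62, adjusted p = 0.0719). The groups did not overlap, and the low unstimulated replicate 1 array widened both the difference and its error. Without it the change was 1.00 (0.055), and without PMA replicate 3 it was 2.11 and passed (0.0417). Without both of these arrays it was 1.34; they are the lowest of their groups for TRIB1 itself, and the pair was chosen with earlier results of these data known, so no test is read from that value.

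The remaining effectors did not pass. SESN2, a stress-induced inhibitor of mTORC1, was 6.55, 6.91 and 6.66 and then 7.01, 7.31 and 6.99 (0.40 ± 0.13, adjusted p = 0.0617); the groups did not overlap, and it passed without unstimulated replicate 2 (0.0465) and under the 3 rescalings (0.027 to 0.0441). The ATF4 targets CHAC1, which degrades glutathione (0.09 ± 0.14, adjusted p = 0.722), and ASNS, asparagine synthetase (−0.06 ± 0.18, adjusted p = 0.873), overlapped between groups. CHAC1 and ASNS are the effectors with a CARE match above. Of all 8 effectors, 1 rose (12.5%) and 2 fell (25%), with a median of 0.02, where 13.2% of all genes rose and 13.2% fell. The groups did not overlap for 5 of the 8 (62.5%), 3 higher and 2 lower with PMA, against 41.2% of all genes.

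ER-associated degradation held the largest fall of the 34. EDEM1, a mannosidase-like protein that marks misfolded glycoproteins for disposal and a known target of XBP1, was 10.15, 10.71 and 10.75 in unstimulated cells and 8.97, 9.10 and 8.93 with PMA. The groups were apart by more than 1 log2 unit at their nearest arrays, and the fall was 2.90-fold (−1.54 ± 0.16, adjusted p = 0.000443). Its relative EDEM2, which starts mannose trimming, fell 1.59-fold (−0.67 ± 0.13, adjusted p = 0.00793), from 8.68, 8.53 and 8.59 to 7.98, 8.15 and 7.67. EDEM3, the third of the family, was 10.39, 10.17 and 10.29 and then 10.29, 10.50 and 10.04, with overlapping groups (−0.01 ± 0.13, adjusted p = 0.98). The 3 EDEM genes therefore did not move by the same amount. Within arrays the log2 ratio of EDEM1 to EDEM3 signal ran from −0.23 to 0.54 in unstimulated cells and from −1.40 to −1.10 with PMA, a change of −1.53. This pair too was picked after the values were seen and carries no test.

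The retrotranslocation machinery showed no call in either direction. SYVN1 (HRD1), the ubiquitin ligase of the pathway (0.24 ± 0.15, adjusted p = 0.30), and its partner SEL1L (0.11 ± 0.13, adjusted p = 0.614) overlapped between groups. DERL1 and DERL2, membrane proteins of the channel, were above 0 with groups that did not overlap. DERL1 was 10.42, 10.24 and 10.42 and then 10.72, 10.65 and 10.47 (0.25 ± 0.11, adjusted p = 0.125), and DERL2 was 8.65, 8.41 and 8.55 and then 8.84, 8.68 and 8.68 (0.20 ± 0.10, adjusted p = 0.209). DERL3, the relative that is high in secretory cells, overlapped (−0.13 ± 0.12, adjusted p = 0.485). HERPUD1, a membrane scaffold of the ligase complex with an ERSE-II and a CARE match, was 9.40, 9.43 and 9.59 and then 9.83, 9.68 and 10.05. Its groups did not overlap and it lay at the threshold (0.38 ± 0.12, adjusted p = 0.0502): it passed without PMA replicate 2 (0.0398), with centred arrays (0.0222) and with cyclic loess (0.0279). Of the 9 degradation genes, 2 fell and none rose in limma with adjustment, where 13.2% of all genes fell and 13.2% rose. The groups did not overlap for 5 of the 9 (55.6%), 3 of them higher and 2 lower with PMA, against 41.2% of all genes. At an unadjusted p of 0.05, HERPUD1 and DERL1 were higher.

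**Figure D3:**
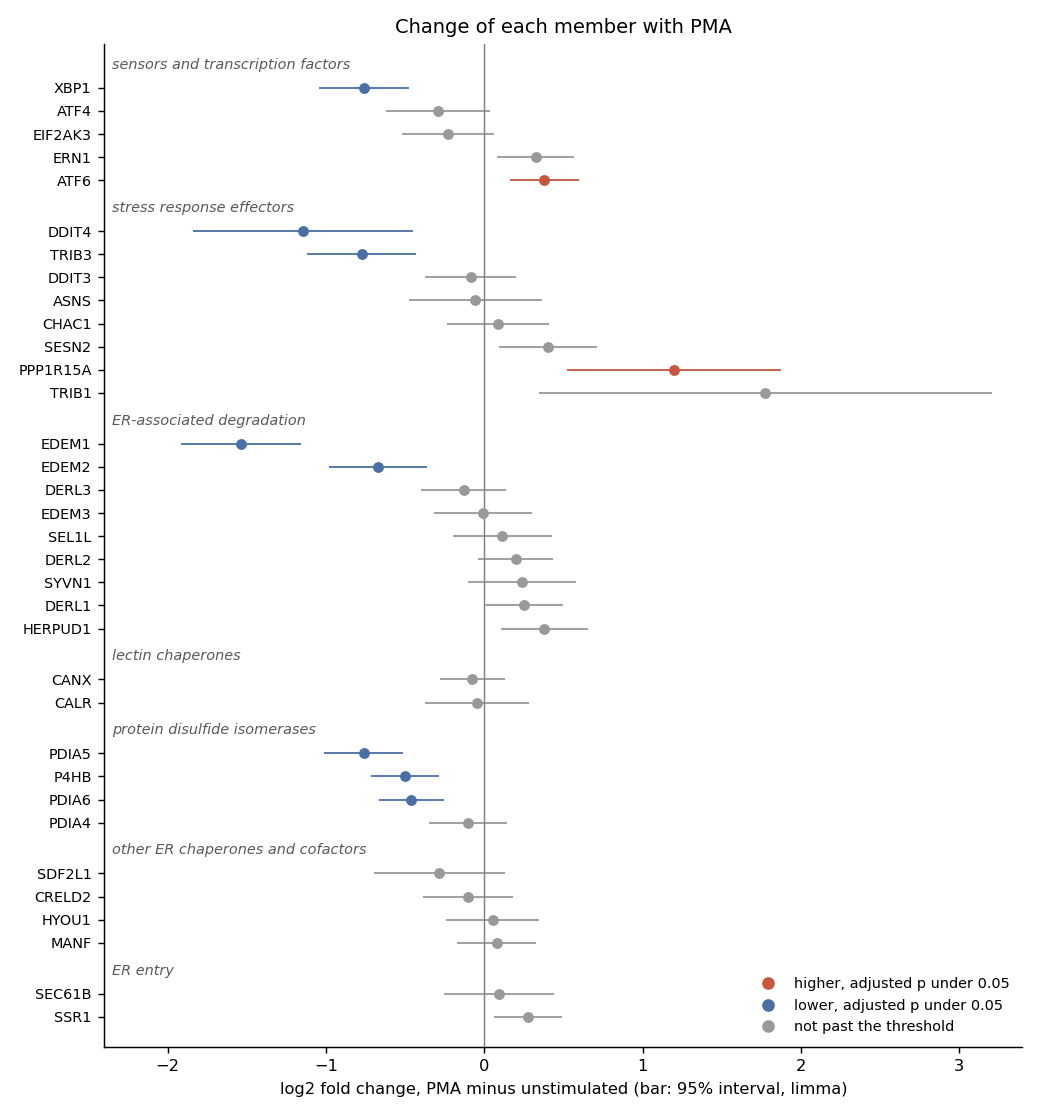
Log2 fold change of each of the 34 members (x axis, PMA minus unstimulated) with its 95% interval from limma, ordered within roles; red is higher and blue lower at an adjusted p under 0.05, grey did not pass. EDEM1 at −1.54 is lowest, and TRIB1 at 1.78 has the widest interval, from 0.34 to 3.21.

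The lectin chaperones, which hold newly made glycoproteins while they fold, showed no difference beyond their error. CANX (calnexin) was 12.48, 12.53 and 12.57 in unstimulated cells and 12.42, 12.41 and 12.54 with PMA. The groups overlapped (−0.07 ± 0.09, adjusted p = 0.615), and the 95% interval of the difference ran from −0.28 to 0.13. CALR (calreticulin) was 12.03, 11.60 and 11.63 and then 11.80, 11.53 and 11.78 (−0.05 ± 0.14, adjusted p = 0.859). Its interval ran from −0.38 to 0.28. The sign of CALR turned when arrays were rescaled by centring or cyclic loess, and that of CANX under all 3 rescalings, so neither has a direction. Both promoters carry an ERSE.

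The disulfide isomerases were the role with the lowest median, −0.48. Of the 4 measured, 3 fell (75%), where 13.2% of all genes fell, and none was higher at an unadjusted p of 0.05. PDIA5 fell most, 1.70-fold (−0.76 ± 0.11, adjusted p = 0.00174), from 8.80, 8.54 and 8.70 to 8.01, 7.96 and 7.79. P4HB, which encodes PDI itself and is also a subunit of collagen prolyl hydroxylase, fell 1.41-fold (−0.50 ± 0.09, adjusted p = 0.00579). It was 12.58, 12.44 and 12.44 and then 11.98, 11.92 and 12.07, and its other probe set gave a like value (−0.64 ± 0.10, adjusted p = 0.0024 over all probe sets with 1 symbol). PDIA6, which works with BiP and restrains IRE1, fell 1.38-fold (−0.46 ± 0.09, adjusted p = 0.00684), from 11.46, 11.42 and 11.49 to 11.05, 10.90 and 11.03. In all 3 every PMA array was below every unstimulated array, as for 22% of all genes. The 3 calls held whichever single array was left out. None of the 3 reached the threshold against a 1.5-fold change.

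PDIA4 (ERp72), another isomerase of the family, was 10.32, 10.02 and 10.08 in unstimulated cells and 10.07, 9.97 and 10.08 with PMA, and its groups overlapped (−0.10 ± 0.11, adjusted p = 0.567). The log2 ratio of P4HB to PDIA4 signal within an array ran from 2.26 to 2.42 in unstimulated cells and from 1.90 to 1.99 with PMA. That of PDIA6 to PDIA4 ran from 1.14 to 1.41 and then from 0.93 to 0.98. Both ratios were lower on every PMA array, so P4HB and PDIA6 changed unequally with PDIA4; these pairs were picked after the values were seen and carry no test.

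**Figure D4:**
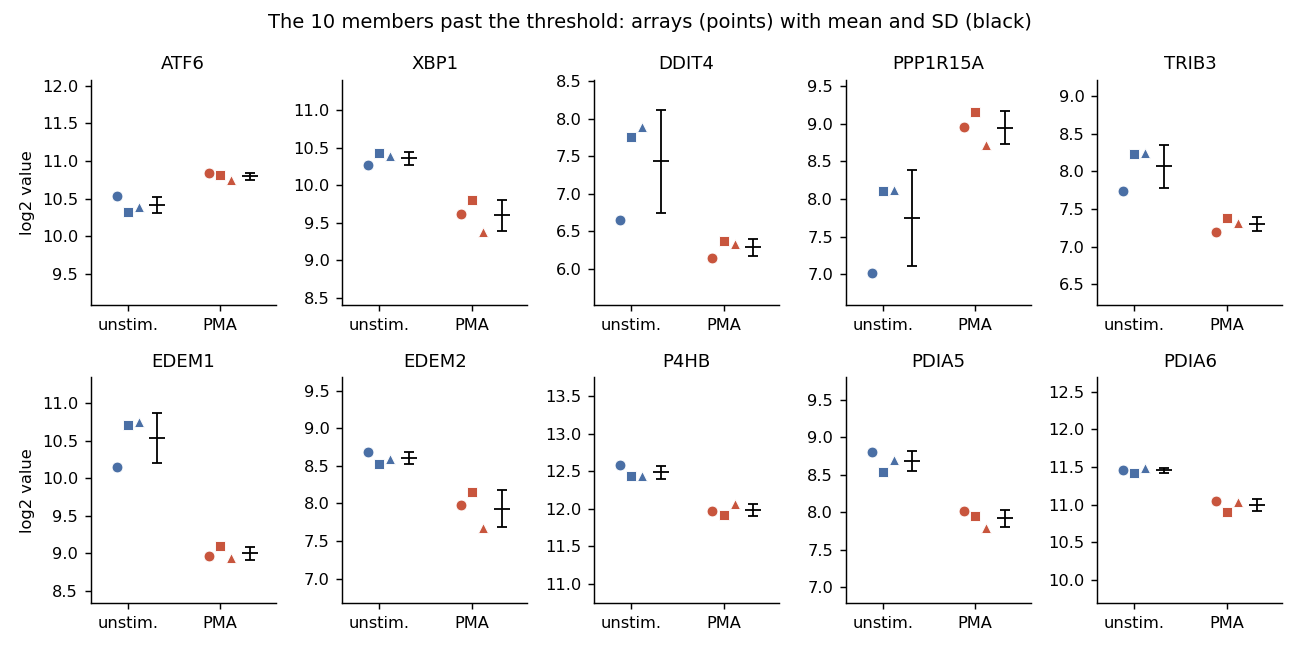
The 10 members past the threshold, as log2 values of each array (points, shape by replicate) beside the group mean and SD (black), with y axes that span the same 3 log2 units. In each panel the PMA arrays lie wholly above (ATF6, PPP1R15A) or wholly below the unstimulated arrays; DDIT4 and PPP1R15A have 1 low unstimulated array, at 6.65 and 7.01.

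Other ER chaperones and cofactors gave no call. HYOU1 (GRP170), the nucleotide exchange factor of BiP, was 9.52, 9.15 and 9.12 in unstimulated cells and 9.40, 9.25 and 9.29 with PMA (0.05 ± 0.13, adjusted p = 0.82). SDF2L1, a partner of BiP and its J proteins, was 7.81, 7.09 and 7.22 and then 7.07, 7.13 and 7.08 (−0.28 ± 0.18, adjusted p = 0.311). One unstimulated array set that difference, since without replicate 1 it was −0.07. CRELD2 (−0.10 ± 0.12, adjusted p = 0.62), an ERSE-bearing gene of a secreted ER stress protein, and MANF (0.08 ± 0.11, adjusted p = 0.671), a secreted factor that binds BiP, also overlapped. None of the 4 passed at an unadjusted p of 0.05.

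At the entry to the ER, SSR1, a subunit of the TRAP complex beside the Sec61 channel, was 10.16, 9.98 and 10.16 and then 10.35, 10.43 and 10.35. The groups did not overlap and it did not pass (0.28 ± 0.09, adjusted p = 0.0635), while under the 3 rescalings it did (0.0171 to 0.0372). SEC61B, a small subunit of the channel, was 10.45, 10.16 and 10.03 and then 10.41, 10.45 and 10.07, with overlapping groups (0.09 ± 0.15, adjusted p = 0.723).

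Arrays of one group also differed among themselves. On the unstimulated replicate 1 array all 8 stress response effectors were the lowest of the 3 unstimulated values, by a median of −0.39 against the mean of the other two, where 35.7% of all genes were lowest on it. All 4 chaperones and cofactors of the group with HYOU1 were the highest there, by a median of 0.34, as were both ER entry genes and 3 of the 4 isomerases, where 39.4% of all genes were highest. The other roles were mixed on it: 3 of the 9 degradation genes were lowest and 5 highest, 3 of the 5 sensors and transcription factors lowest and 1 highest, and 1 of the lectin chaperones was at each end. HSPA5 and HSP90B1 were also highest on it, at 11.96 and 12.29. Over all 18417 genes the median shift of that array was 0.01. With PMA, the replicate 3 array was the lowest for 4 of 5 sensors and transcription factors, by a median of −0.15, where 36% of all genes were lowest on it, and the replicate 2 array was the highest for 7 of the 8 effectors, where 29.2% of all genes were. The PMA replicate 1 array was the lowest for 5 of the 8 effectors (62.5%), where 29.2% of all genes were lowest on it. None of the 10 calls was lost without unstimulated replicate 1 or without PMA replicate 3. Without the latter, XBP1 changed by −0.65, ATF6 by 0.41, ERN1 by 0.37, EIF2AK3 by −0.14 and ATF4 by −0.36. Without unstimulated replicate 1, TRIB3 changed by −0.94 and SESN2 by 0.32, and HYOU1 by 0.18, MANF by 0.18, SEC61B by 0.21 and SSR1 by 0.31, while CHAC1 (−0.01), ASNS (−0.15) and CRELD2 (−0.03) stayed below or moved below 0.

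The rest of the pathway was read from lists of 95 other genes, 91 of them measured; 21 rose (23.1%) and 16 fell (17.6%), with a median of 0.05, where 13.2% of all genes rose and 13.2% fell. With arrays centred on their medians 27 rose and 10 fell, against 2911 and 1802 of all genes. Without PMA replicate 1, 14 rose and 10 fell, against 1726 and 1597 of all genes. The shares over all genes, dim genes included, are the background of each list below. Among brighter genes a larger share passed, as given above for the members, and the lists are not set against those here. BiP itself, HSPA5, the central ER chaperone and the usual marker of the unfolded protein response, was 11.96, 11.64 and 11.72 in unstimulated cells and 11.84, 11.77 and 11.71 with PMA (−0.01 ± 0.11, adjusted p = 0.98), with a sign that turned under the 3 rescalings. GRP94, HSP90B1, did not pass (−0.19 ± 0.09, adjusted p = 0.18), although its groups did not overlap. Both carry an ERSE. Of the 8 genes of BiP, GRP94 and their J proteins, 4 rose and 1 fell. DNAJC10, a reductase that feeds degradation (1.02 ± 0.10, adjusted p = 0.000294), and DNAJB9, a J protein that represses IRE1 (0.90 ± 0.17, adjusted p = 0.00635), rose most, and DNAJC1 fell (−0.97 ± 0.09, adjusted p = 0.000247). DNAJB9, like EDEM1 a known XBP1 target, therefore moved the opposite way from EDEM1.

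In the disulfide relay 3 of 13 fell and none rose in limma (3 and 3 at an unadjusted p of 0.05), with ERP29 lowest (−1.16 ± 0.11, adjusted p = 0.0002) followed by the sulfhydryl oxidase QSOX1 (−0.58 ± 0.11, adjusted p = 0.00516). Of 7 genes of glycan trimming and the calnexin cycle, 2 rose and 3 fell, with the folding sensor homologue UGGT2 higher (0.92 ± 0.17, adjusted p = 0.00594). Of 13 other degradation genes, 1 rose, SELENOS (0.49 ± 0.10, adjusted p = 0.00878), and 2 fell, the deglycosylase NGLY1 (−0.68 ± 0.09, adjusted p = 0.00118) and the lectin OS9 (−0.49 ± 0.11, adjusted p = 0.0108). Of 15 translocon and signal peptidase genes 3 rose and none fell (none at an unadjusted p of 0.05 either, in limma), led by the signal peptidase subunit SPCS3 (0.62 ± 0.11, adjusted p = 0.00503).

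Among genes of eIF2alpha phosphorylation, 4 of 6 rose, DNAJC3 among them, which the list of J proteins also holds, and none fell in limma (2 fell at an unadjusted p of 0.05), with the double-stranded RNA kinase EIF2AK2 (0.86 ± 0.16, adjusted p = 0.00547) and the PERK inhibitor DNAJC3 (0.49 ± 0.10, adjusted p = 0.0101) highest. Of 7 genes that process ATF6 or resemble it, 2 rose and 1 fell. CREB3, an ER-bound factor released in the same way as ATF6, rose 2.82-fold (SE 0.13 in log2 units, adjusted p = 0.000194), and MBTPS2, the protease that makes the second cut, rose too (0.60 ± 0.11, adjusted p = 0.00551). Of 23 ATF4 targets, 6 rose and 6 fell: the lipoprotein receptor VLDLR fell 9.51-fold (−3.25 ± 0.16, adjusted p = 1.22e-05), the serine synthesis enzyme PHGDH fell (−0.90 ± 0.18, adjusted p = 0.00892), CEBPB rose (1.72 ± 0.30, adjusted p = 0.00422), and ATF3 did not pass (0.25 ± 0.16, adjusted p = 0.329). Among the genes named from the lists, MAN1B1, MLEC, PRKCSH, CREB3L3, SEC61A2 and CTH also passed, and each lost its call without at least 1 array. Further genes of the lists passed; they are in the counts above and are not named.

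**Figure D5:**
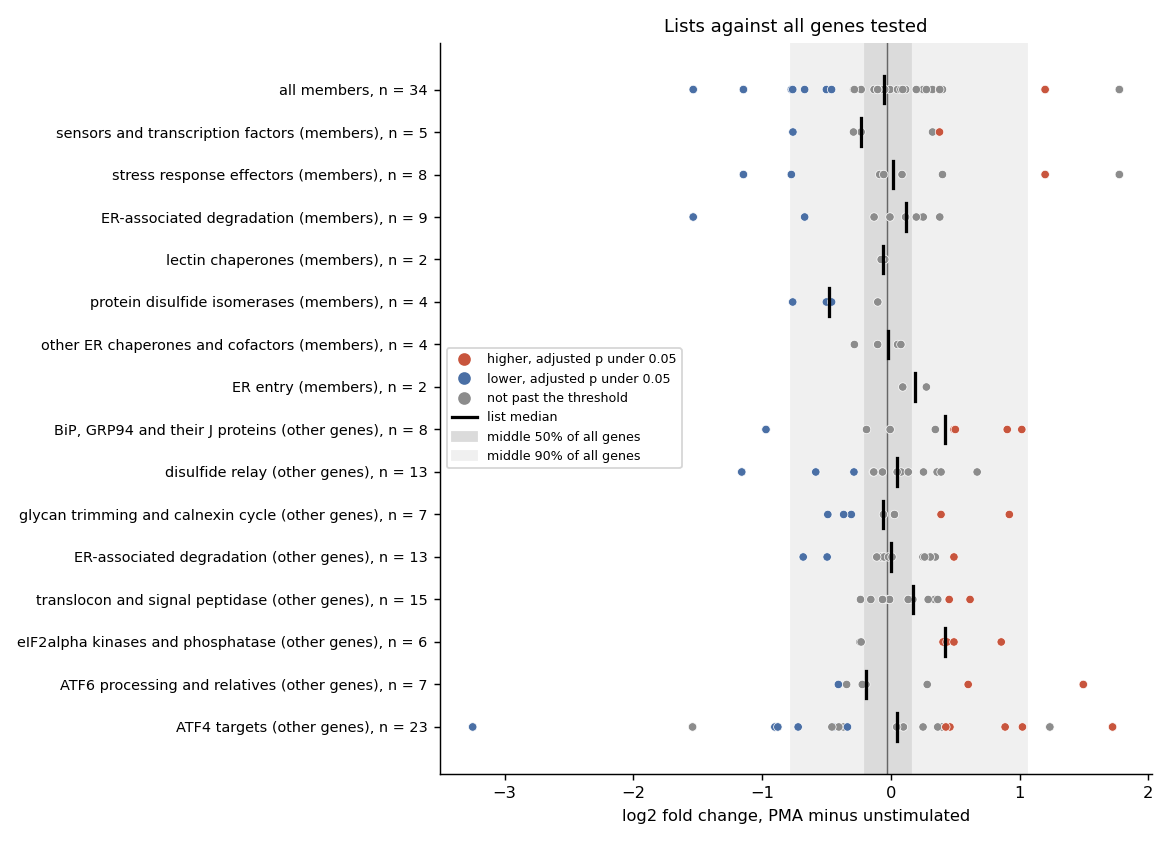
Log2 fold changes (x axis, PMA minus unstimulated) of the 34 members, together and by role, and of 8 lists of other pathway genes, 1 point a gene; red is higher and blue lower at an adjusted p under 0.05, grey did not pass, and black bars are list medians. Dark and pale bands hold the middle 50% and 90% of all genes tested. The isomerase (−0.48) and sensor (−0.23) medians lie below the dark band, and those of the BiP list (0.42), the eIF2alpha list (0.42), the ER entry members (0.18) and the translocon list (0.17) lie above it.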

How the data were processed

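Total RNA of 6 THP-1 samples was biotin-labelled and read on single-channel Affymetrix arrays. The values analysed are the authors' own log2 intensities, 1 for each probe set, as deposited. RMA and Partek are named in the submitters' processing notes, without version or settings. RMA forces the arrays to similar distributions and shrinks differences of dim probes.

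Samples were grouped by the titles in the labels. Of 33297 probe sets, 19460 carried 1 symbol, of which 19429 were matched by gene ID to the current gene table (GRCh38.p14); 1754 carried more than 1 symbol, and the remaining 12083 were unnamed. The brightest probe set by mean stood for a gene, with no filter on dim genes. PMA and unstimulated arrays entered 1 linear model per gene (limma 3.58.1, R 4.3.3, eBayes, two-sided), with 7.71 degrees of freedom after moderation, Benjamini-Hochberg adjustment and a threshold of 0.05. The median standard error was 0.115, and precision is limited by 3 arrays a group. The fit was tested on simulated data. Motifs were searched with Python 3.11.15 and figures drawn with matplotlib 3.10.9.

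The members, lists and tests were chosen with earlier results of these data known. Named were all members whatever their values, of each other list up to 2 rises and 2 falls past the threshold, HSPA5, HSP90B1, ATF3 and cell type markers. ERSE-II and the ratios between members were added after the values were seen. Alternatives covered normalization, dim genes, the probe set, the variance model, a replicate block, stricter thresholds, each array left out, and both unstimulated replicate 1 and PMA replicate 3 left out.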

Additional observations from a re-analysis of the deposited data

How the results depend on the processing

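XBP1, EDEM1, EDEM2, TRIB3, P4HB, PDIA5 and PDIA6 kept their direction under every alternative and their call under each array left out, each rescaling, each filter on dim genes, each choice of probe set and an adjusted p of 0.01. Against a 1.5-fold change EDEM1 alone of the members passed, and by the gene-wise model EDEM2 and TRIB3 lost their calls. No pairing of the samples by replicate number is given in the labels. Correlations of same-numbered deviations were 0.177, −0.022 and 0.046, and those of other pairs ran from −0.154 to 0.112. With 3 arrays a group they cannot decide whether samples were paired. With the replicate block 4 members rose and 8 fell, the added rises being HERPUD1 and SESN2. Over all genes 2409 rose and 2317 fell with it. Members that rose numbered 2 in the main comparison, 4 with quantile normalization repeated, 6 with centred arrays, 7 with cyclic loess, 8 with array quality weights, 1 by the gene-wise model, 0 at an adjusted p of 0.01 and against a 1.5-fold change, 7 without both unstimulated replicate 1 and PMA replicate 3, and 0 to 3 without single arrays. Members that fell numbered 8 with array quality weights, 5 by the gene-wise model, 1 against a 1.5-fold change and 9 without both named arrays. Over all genes, 3066 rose and 3171 fell with array quality weights, and 1385 and 1458 by the gene-wise model. At an adjusted p of 0.01, 1509 rose and 1315 fell, and against a 1.5-fold change 682 and 443. Without single arrays 1726 to 2593 rose and 1597 to 2449 fell, and without both named arrays 3212 rose and 3098 fell. Median changes moved by more than the spread between arrays with centred arrays for sensors (−0.14) and degradation genes (0.20), with cyclic loess for isomerases (−0.39), and without both arrays for ER entry (0.33); without single arrays the sensors ran from −0.31 to −0.14 and ER entry from 0.14 upwards. The causes were not tested. ASNS, CALR, CANX, CHAC1, EDEM3, HYOU1, SEC61B, SEL1L and HSPA5, none past the threshold, changed sign under some alternatives. No member's mean lay below the arrays' lower quartiles (4.46 to 4.57) in either group.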
